A study of Mus musculus with 12 samples.

Results

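Interferon-stimulated genes were followed across the 12 libraries as 50 genes chosen by symbol, of 35907 genes to which the deposited transcripts were assigned. All 50 were found, and all 50 passed the filter on low counts in every comparison. They were read in 10 classes by role: 35 genes best known as type I interferon targets in 7 classes, and, apart from these, 8 guanylate-binding proteins, 4 immunity-related GTPases and 3 Ifitm genes. Interferons are secreted proteins that warn cells of infection. Type I interferons signal through the receptor of Ifnar1 and Ifnar2 to a complex with STAT2 and IRF9 that binds the interferon-stimulated response element (ISRE), whereas interferon-gamma, made by activated T cells and NK cells, signals through Ifngr1 and Ifngr2 to factors that bind the GAS element. The products of the target genes sense foreign nucleic acid, block virus entry and translation, attack vacuoles that hold pathogens, and tune the pathway itself.

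The study asked what the transcription factor TCF-1 (gene Tcf7) does in donor CD4 T cells in a mouse model of allogeneic transplantation. The 4 groups of 3 libraries were TCF-1 cKO Pre-Tx, WT Pre-Tx, TCF-1 cKO Post-Tx and, last, WT Post-Tx. TCF-1 cKO mice (labelled TCF-7 cKO) carry Tcf7 flox/flox with Cre driven by the Cd4 promoter, which acts in all T cells from the double-positive thymocyte on. Donors were C57BL/6 mice of 8 to 12 weeks, and Pre-Tx cells were sorted from their spleens. The study describes Post-Tx cells as donor T cells, sorted at day 7 by H2Kb together with CD3, CD4 and CD8. They came from spleens of lethally irradiated female BALB/c recipients that had received donor CD3 T cells. As the study describes its transplants, recipients also received T cell-depleted bone marrow of WT C57BL/6 mice. That marrow carries H2Kb as well, so H2Kb alone does not tell its progeny from the T cells given. A Post-Tx library thus differs from a Pre-Tx library in host, time and cell state at once. The labels call all libraries CD4 T cells and biological replicates, without saying whether a library is 1 mouse or a pool, so the p-values measure the spread between these libraries. The series text and the study's methods also name CD8 T cells for one or other sort.

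Tcf7 itself stood at 189, 148 and 193 normalized CPM (the count relative to the library total, scaled by TMM factors) in Pre-Tx TCF-1 cKO, against 207, 201 and 124 in WT Pre-Tx. After transplant the values were 91.6, 107 and 113 in TCF-1 cKO and 158, 155 and 182 in WT. The Pre-Tx groups overlapped, and the log2 fold change of TCF-1 cKO over WT was -0.04 (SE 0.23, adjusted p = 0.924) Pre-Tx and -0.66 (SE 0.22, adjusted p = 0.067) Post-Tx. Whole transcripts were counted, so the loss of the floxed part alone would not be seen in these values. Genotypes are therefore those of the labels, and every direction given below for TCF-1 cKO rests on them.

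Total estimated counts ranged from 17103415 to 49486745 per library and differed by group. They were 27109156 to 49486745 in WT Post-Tx and 18022093 to 23098887 in TCF-1 cKO Post-Tx. Pre-Tx they were 17103415 to 19691807 in WT and 20183939 to 25756488 in TCF-1 cKO. The Pre-Tx libraries held many transcripts of other cells. The summed level of 10 B cell markers was 9237 to 11520 normalized CPM in the 6 Pre-Tx libraries and 200.2 to 396.8 in the 6 Post-Tx libraries, and Cd79a TPM was 7.65 to 20.4 times Cd3e TPM Pre-Tx. Cd4 TPM was 0.371 to 1.19 times Cd8a TPM Pre-Tx and 43.0 to 1070 times Post-Tx. Of 12 T cell markers, 7 passed the test as lower in Pre-Tx TCF-1 cKO and 9 as lower in TCF-1 cKO Post-Tx, with sums of 2122 to 2653 against 3970 to 5214 Pre-Tx and 5339 to 6218 against 8233 to 12160 Post-Tx. Of 6 NK cell markers, 4 were higher in TCF-1 cKO Pre-Tx, with sums of 547.3 to 623.3 against 131.8 to 274.1. Of 6 plasmacytoid dendritic cell markers, a cell type known for interferon output, 1 was higher in TCF-1 cKO Pre-Tx, with sums of 914.9 to 1114 against 643.8 to 898.5 (this list shares Bst2 with the genes described here). No marker in these 4 lists was at 0 in a whole group. Genes of olfactory receptors, which have no role in T cells, summed to 1038 to 1687 in Pre-Tx TCF-1 cKO and 2912 to 7338 in WT Pre-Tx, and to 3763 to 9185 in Post-Tx TCF-1 cKO and 1246 to 2851 in WT Post-Tx. In such bulk RNA, fewer cells of a type and less RNA per cell cannot be told apart.

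Promoter sequences are shown for 8 members because the ISRE is the feature by which this gene set is known. RefSeq windows from 250 bases before to 50 after the transcription start (GRCm38.p6) were matched by symbol for 36 of the 50 members. Capitals mark the ISRE, searched on both strands as GAAA, any 2 bases and GAAA again, so that a pair of TTTC is the same element read on the other strand, and each stretch of 60 bases is written 5′ to 3′ along its gene and ends before the RefSeq start.
Ifit3, chr19:34583365-34583424, plus strand: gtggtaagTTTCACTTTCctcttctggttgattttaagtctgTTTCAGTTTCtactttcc
Isg15, chr4:156200856-156200915, minus strand: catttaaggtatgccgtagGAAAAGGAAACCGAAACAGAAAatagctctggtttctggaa
Trim30a, chr7:104465195-104465254, minus strand: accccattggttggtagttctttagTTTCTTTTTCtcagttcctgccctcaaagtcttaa
Ifi208, chr1:173673582-173673641, plus strand: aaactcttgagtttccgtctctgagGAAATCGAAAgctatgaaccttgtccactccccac
Irgm1, chr11:48871421-48871480, minus strand: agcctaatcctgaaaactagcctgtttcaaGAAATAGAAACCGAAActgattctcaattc
Gbp3, chr3:142559977-142560036, plus strand: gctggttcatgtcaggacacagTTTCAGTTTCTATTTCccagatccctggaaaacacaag
Gbp7, chr3:142530258-142530317, plus strand: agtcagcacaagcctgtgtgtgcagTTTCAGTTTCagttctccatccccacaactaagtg
Ifitm2, chr7:140955973-140956032, minus strand: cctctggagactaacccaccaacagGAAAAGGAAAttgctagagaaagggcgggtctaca
Ifit3 and Trim30a are type I genes, Isg15 encodes the ubiquitin-like protein that is conjugated to other proteins in the response, and Gbp3, Gbp7 and Irgm1 are GTPases. Isg15 held 3 overlapping matches, Ifit3 2 separate ones, and Gbp3 and Irgm1 2 overlapping ones. In all, 20 of the 36 members (55.6%) had an ISRE match, beside 3.99% of the 27025 genes with a window. The GAS element, searched on both strands as TTC, any 3 bases and GAA, was matched in 13 of 36 (36.1%), beside 9.55% of all genes. In 2 members, Ifitm3 and Bst2, an ISRE match overlapped a GAS match. An ISRE match was present in 8 of the 15 members with a window that were higher Pre-Tx in TCF-1 cKO, and in 11 of the 20 with a window that did not pass there. All 4 guanylate-binding proteins with a window (Gbp2, Gbp3, Gbp5 and Gbp7, which lie together on chromosome 3) had a match, and so did Ifitm2 and Ifitm3 on chromosome 7.

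Levels were compared between genes in TPM, which is scaled for transcript length. Summed over the 50 genes, TPM was 2297 to 2573 in WT Pre-Tx, 3101 to 3956 in TCF-1 cKO Pre-Tx, 6036 to 6993 in Post-Tx TCF-1 cKO and 7416 to 7967 in WT Post-Tx. The 4 ranges did not overlap, and the Ifitm genes made up 2763 to 3317 of the sum in Post-Tx TCF-1 cKO and 4033 to 4701 in WT Post-Tx. Between stages TPM and normalized CPM could differ in direction. In TCF-1 cKO the mean of Irf1 went from 197.6 to 247.1 TPM but from 404.4 to 349.6 normalized CPM. Changes between groups are therefore read from the tests below and not from these sums. Before transplant the highest mean TPM belonged to Ifitm3, a membrane protein that hinders fusion of entering viruses (389.8 ± 38.2 in TCF-1 cKO and 431.6 ± 106 in WT, SD, n = 3 each). Irf1, an early transcription factor of both interferon types and the most abundant of the 3 Irf members, stood at 209.7, 199 and 184 TPM in Pre-Tx TCF-1 cKO, 172, 206 and 140 in Pre-Tx WT, 275, 214 and 253 in Post-Tx TCF-1 cKO and 271, 239.6 and 246 in WT Post-Tx. Its Pre-Tx groups overlapped, and so did its Post-Tx groups. Isg15 stood at 36.2 to 73.4 TPM over all libraries, below every Irf1 value. At the low end, Mx2, a dynamin-like antiviral GTPase, had a mean of 0.60 TPM in WT Pre-Tx and 0.70 in TCF-1 cKO Post-Tx, and Oas2 1.18 and 3.35 in the same groups. In WT Pre-Tx 18 of the 50 genes had a mean under 10 TPM, against 9 in TCF-1 cKO Pre-Tx, 7 in Post-Tx TCF-1 cKO and 9 in WT Post-Tx.

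**Figure D1:**
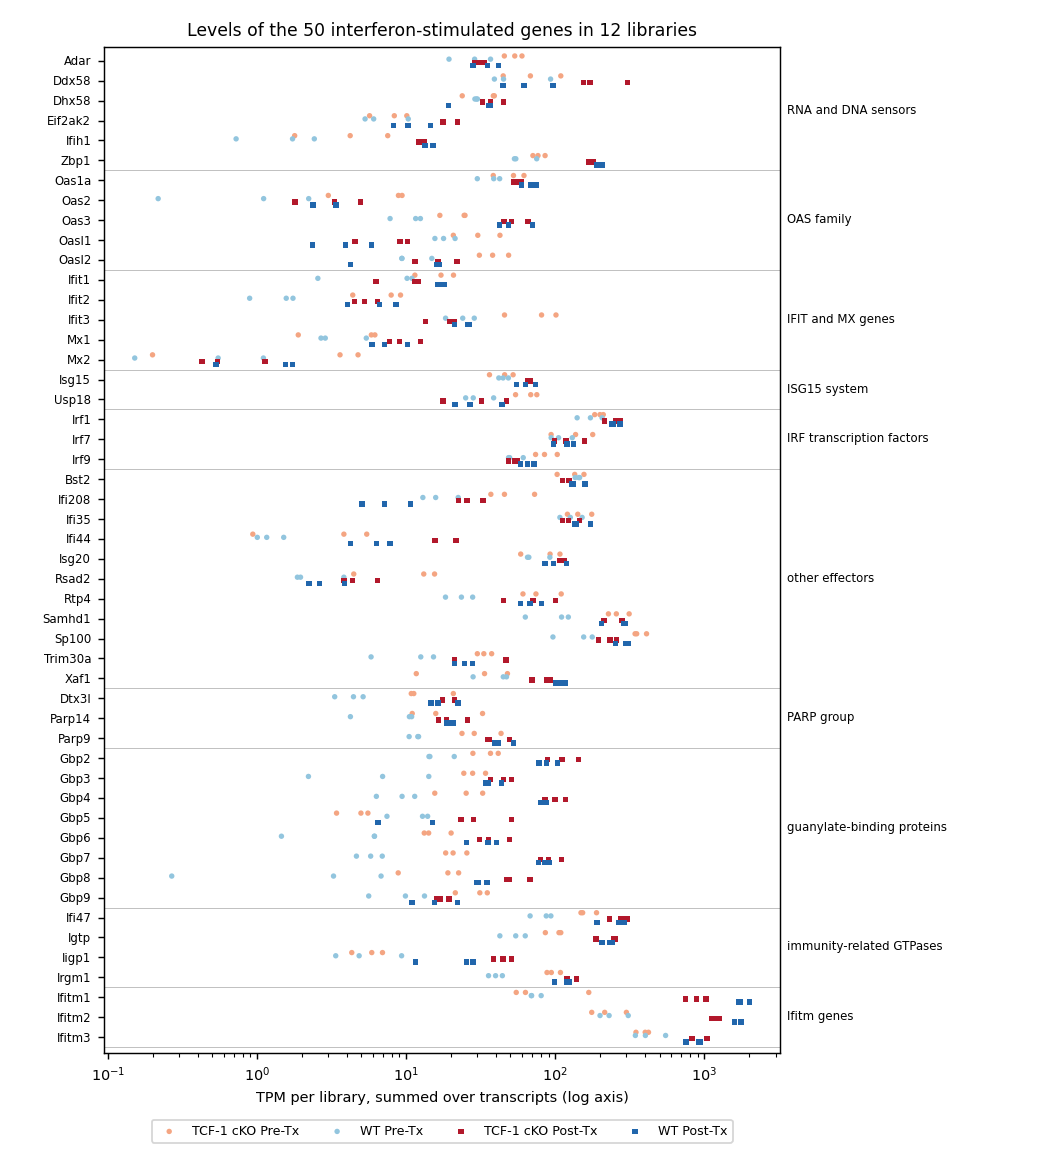
TPM of each of the 50 genes (rows, grouped by class) in each of the 12 libraries (points, log axis), coloured by group. The Ifitm genes reach the highest levels, with Ifitm1 at 1687 to 1998 TPM in WT Post-Tx, while Mx2 and Oas2 lie at the low end.

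The first comparison asks how TCF-1 cKO and WT donor cells differed before transplant. In TCF-1 cKO Pre-Tx 21 of the 50 genes were higher (42.0%) and 1 was lower at an adjusted p under 0.05, where of all 17021 genes tested 8.52% were higher and 5.65% lower. The median log2 fold change of the 50 genes was 0.86, beside -0.11 over all genes tested. The higher genes spanned RNA sensors, antiviral effectors, the PARP group and the GTPases, by 1.68-fold (Ifi47) to 4.52-fold (Ifit2). None of the 3 Irf genes, the 3 Ifitm genes, Isg15 or Usp18 passed the test.

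Among the sensors, 2 of 6 were higher. Ddx58 (RIG-I, a helicase that detects viral RNA) had a log2 fold change of 1.00 (SE 0.27) and Adar, which edits adenosine to inosine in double-stranded RNA, one of 0.80 (SE 0.21). Under upper-quartile scaling, a minimum mean CPM of 10 or limma voom on TPM, 0 of the 6 sensors passed. Zbp1, a sensor of left-handed nucleic acid that can trigger necroptosis and the most abundant of the class over the 4 groups, stood at 96.5, 90.1 and 91.3 normalized CPM in Pre-Tx TCF-1 cKO and 63.9, 90.2 and 80.0 in WT Pre-Tx. The groups overlapped and the difference did not pass.

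In the oligoadenylate synthetase family, whose enzymes make the messenger that activates RNase L, 1 of 5 was higher. Oasl2 stood at 106, 77.9 and 80.4 normalized CPM in Pre-Tx TCF-1 cKO and at 21.4, 23.1 and 26.6 in WT Pre-Tx. All TCF-1 cKO libraries lay far above all WT libraries, and the log2 fold change was 1.85 (SE 0.29, adjusted p = 0.00687), the smallest adjusted p of the 50 genes in this comparison. Oas1a, the most abundant of the family, stood at 64.1, 92.8 and 119 against 59.9, 85.7 and 84.5, and the groups overlapped. Oas2 had the largest fold change of all 50 genes (2.33, SE 0.74) but did not pass (adjusted p = 0.0548), with single libraries from 9.97 to 34.0 in TCF-1 cKO and 0.740 to 8.90 in WT.

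Of the Ifit and Mx genes, 2 of 5 were higher. Ifit2 and Ifit3 encode proteins that bind viral RNA or each other to stop its translation. Ifit3 stood at 123, 73.6 and 178 normalized CPM in Pre-Tx TCF-1 cKO and at 33.5, 52.8 and 47.9 in WT Pre-Tx, and Ifit2 at 30.7, 16.8 and 30.9 against 6.94, 5.74 and 4.25. No library of one genotype reached into the range of the other in either gene. The log2 fold changes were 1.41 (SE 0.32) and 2.17 (SE 0.44), with adjusted p values of 0.0201 and 0.0143. Isg15 stood at 19.1, 16.7 and 25.6 against 23.2, 21.3 and 29.7, with overlapping groups.

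Among the other effectors 6 of 11 were higher, namely Ifi208, Rsad2, Rtp4, Samhd1, Sp100 and Trim30a. Trim30a, a mouse TRIM protein that restrains Toll-like receptor signaling, stood at 137, 125 and 126 normalized CPM in TCF-1 cKO and at 33.2, 46.9 and 15.4 in WT (log2 fold change 2.01, SE 0.34, adjusted p = 0.00906). Its 3 TCF-1 cKO libraries were close together and all far above any WT library. Samhd1, which breaks down the nucleotides that reverse transcription needs, stood at 581, 438 and 545 against 246, 274 and 161 (log2 fold change 1.17, SE 0.22, adjusted p = 0.0126). Sp100, a component of nuclear bodies and the most abundant gene of this class, stood at 611, 544 and 602 against 300.4, 328 and 193 (log2 fold change 1.07, SE 0.21, adjusted p = 0.0135). WT replicate 3 was the lowest library for both. Rtp4, first known as a chaperone of membrane receptors, stood at 101, 59.6 and 76.2 against 30.7, 26.1 and 19.0 (log2 fold change 1.62, SE 0.31, adjusted p = 0.0125), again without overlap.

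All 3 genes of the PARP group were higher. Parp9 and Dtx3l encode partners of a complex that joins ADP-ribosylation to ubiquitin transfer, and Parp14 is a mono-ADP-ribosyltransferase. Parp9, the most abundant, stood at 118, 66.6 and 88.3 normalized CPM in Pre-Tx TCF-1 cKO and at 26.2, 31.8 and 40.8 in WT Pre-Tx. The lowest TCF-1 cKO library was above the highest WT library, and the class had log2 fold changes of 1.41 to 1.63.

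Of the 8 guanylate-binding proteins, large GTPases that gather on vacuoles of intracellular pathogens, 5 were higher (Gbp3, Gbp4, Gbp6, Gbp7 and Gbp9) and Gbp5 was lower. Gbp7 stood at 71.7, 56.6 and 68.6 normalized CPM in Pre-Tx TCF-1 cKO and at 22.8, 26.6 and 16.2 in WT Pre-Tx (log2 fold change 1.56, SE 0.29, adjusted p = 0.0123). Every TCF-1 cKO library was above every WT library. Gbp2 stood at 86.3, 102 and 76.0 against 39.7, 59.7 and 43.7, which did not pass (adjusted p = 0.0563) although the groups did not overlap. Gbp5 went the other way, at 11.1, 19.2 and 20.4 against 52.7, 29.2 and 52.5 (log2 fold change -1.48, SE 0.38, adjusted p = 0.0289). Of the 4 immunity-related GTPases, which damage pathogen vacuoles in mice, Irgm1 and Ifi47 were higher. Ifi47, the most abundant, stood at 215, 234 and 314 against 149.5, 165 and 124.

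**Figure D2:**
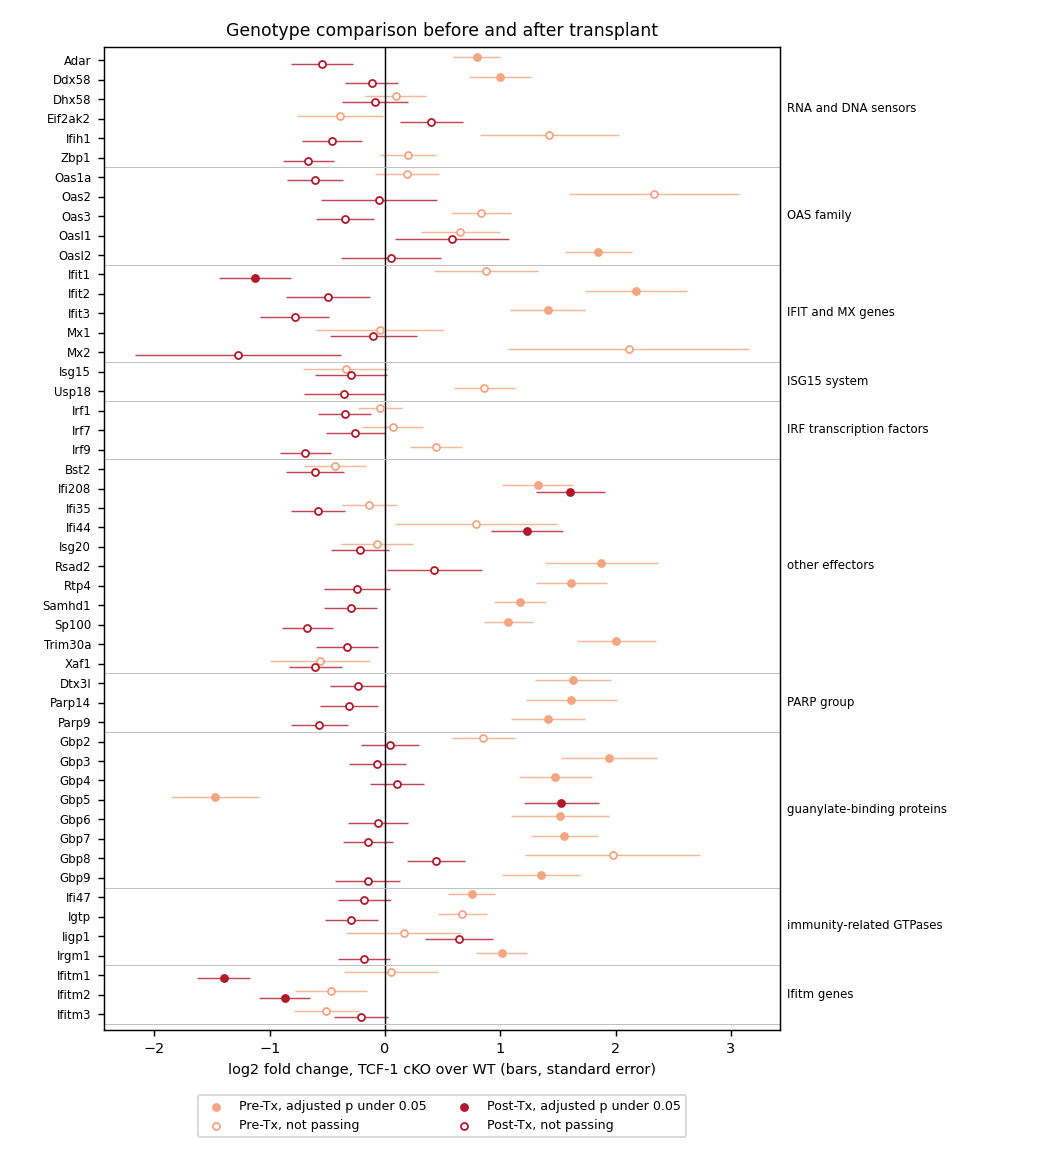
Log2 fold change of TCF-1 cKO over WT for each of the 50 genes before and after transplant, with bars for the standard error and filled points for an adjusted p under 0.05. Most Pre-Tx points lie to the right of 0, with 21 filled there, and Post-Tx only 3 filled points lie on each side.

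Part of the Pre-Tx count rested on single libraries, and upper-quartile scaling gave 15 higher and 1 lower, beside 636 higher and 2068 lower of all 17021 genes. Without WT Pre-Tx replicate 1 none of the 50 genes passed, and of all 17781 genes tested only 10 were higher and 4 lower. In that fit 30 of the 50 had an unadjusted p under 0.05, and no other tool was run without that library. Without TCF-1 cKO Pre-Tx replicate 1 6 passed as higher, beside 339 of all 19037 genes tested. Without any 1 of the other 4 libraries 14 to 19 of the 50 passed as higher, beside 589 to 1294 of all 18073 to 19063 genes tested. The median of the 50 stayed between 0.80 and 1.02 in these 6 fits. Adar, Gbp6 and Ifi47 passed in 0 of the 6, and Ddx58 and Gbp5 in 1. The T cell and NK cell markers and the olfactory receptor sums, given above, moved with the same contrast. The plasmacytoid dendritic cell sum was higher in TCF-1 cKO, but only 1 of the 6 markers passed and their median log2 fold change was -0.07. Of the B cell markers 4 of 10 were higher (median log2 fold change 0.47), with overlapping sums of 10620 to 11520 in TCF-1 cKO and 9237 to 11300 in WT. Of the markers of macrophages, monocytes and dendritic cells 2 of 15 were higher (median 0.43), with overlapping sums of 3321 to 4504 and 3387 to 4995. The part of all these was not tested.

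After transplant the same comparison gave fewer differences. In TCF-1 cKO Post-Tx 3 of the 50 genes were higher and 3 lower, beside 3.52% higher and 3.13% lower (6.65% in all) of 19289 genes tested. These shares, 6.00% each, are near the background. The median log2 fold change of the 50 genes was -0.25, beside 0.09 over all genes tested. The 3 lower genes were Ifitm1, Ifitm2 and Ifit1, and the 3 higher ones Ifi208, Ifi44 and Gbp5.

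Ifitm1 had the smallest adjusted p. Its product is a membrane protein of the family that hinders virus entry. It stood at 884, 744 and 1023 TPM in Post-Tx TCF-1 cKO and 1998, 1687 and 1743 TPM in WT Post-Tx, and at 258, 221 and 278 against 778, 526 and 701 in normalized CPM. The highest TCF-1 cKO library lay well below the lowest WT library, and the log2 fold change was -1.40 (SE 0.23, adjusted p = 0.0111). Ifitm2 stood at 341, 371 and 362 normalized CPM against 726, 510 and 738 (log2 fold change -0.87, SE 0.22, adjusted p = 0.0344), also without overlap, although 55.5% of its 31-base words occur in other genes. Ifitm3 stood at 332, 269 and 316 against 402, 255 and 411, where the groups overlapped and the difference did not pass (adjusted p = 0.533).

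**Figure D3:**
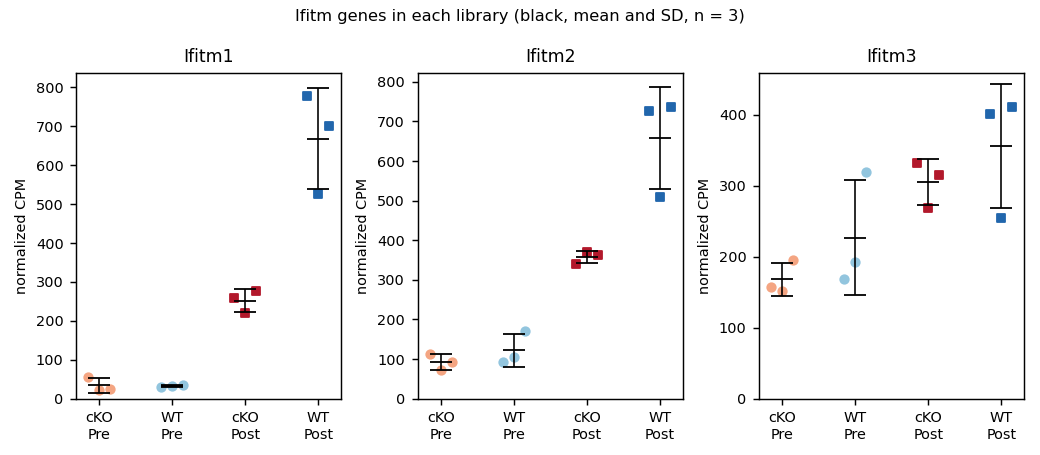
Normalized CPM of Ifitm1, Ifitm2 and Ifitm3 in each library (points) with the mean and SD of each group (black, n = 3). Ifitm1 and Ifitm2 in TCF-1 cKO Post-Tx lie below all 3 WT Post-Tx libraries and above all Pre-Tx libraries, whereas Ifitm3 overlaps between the Post-Tx genotypes.

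Ifit1, which recognizes viral RNA by its cap, stood at 12.2, 21.5 and 20.3 normalized CPM in Post-Tx TCF-1 cKO and 41.7, 32.9 and 43.4 in WT Post-Tx (log2 fold change -1.13, SE 0.31, adjusted p = 0.0412). All 5 Ifit and Mx genes had a fold change below 0 here, and only Ifit1 passed. Ifi208, a member of the family of nuclear DNA-binding PYHIN proteins, was higher, at 49.3, 51.8 and 65.1 against 17.0, 22.8 and 14.6 (log2 fold change 1.61, SE 0.30, adjusted p = 0.0176). It was also higher Pre-Tx, at 189, 121 and 105 against 43.8, 71.6 and 47.8 (log2 fold change 1.32, SE 0.31, adjusted p = 0.021). Ifi44 stood at 34.4, 36.6 and 29.8 against 11.2, 14.4 and 17.8 (log2 fold change 1.23, SE 0.31, adjusted p = 0.0341). In the 8 guanylate-binding proteins the median log2 fold change was -0.01, and Gbp7 for instance stood at 248, 188 and 186 against 235, 219 and 236, with Gbp5 alone passing.

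Without TCF-1 cKO Post-Tx replicate 2 none of the 50 genes passed, and of all 20262 genes tested only 3 were higher and 3 lower. In that fit 14 of the 50 had an unadjusted p under 0.05, and no other tool was run without that library. Without TCF-1 cKO Post-Tx replicate 1 or 3 the counts were 2 higher and 1 lower, without WT Post-Tx replicate 1 0 and 1, and without WT Post-Tx replicate 3 1 and 1. Over all genes tested these fits gave, in that order, 703 higher and 586 lower of 21528, 289 and 156 of 20851, 14 and 50 of 21328, and 173 and 150 of 21341. Without WT Post-Tx replicate 2 the counts of the 50 genes were 3 and 3, beside 1905 and 1268 of all 21104. Upper-quartile scaling, which moved the median of all genes to 0.37, gave 3 higher and 1 lower (Ifitm1), whereas limma voom on counts gave 6 lower, DESeq2 8 and a fit with the replicate block 9, each with 3 higher. Of all 19289 genes, 111 were lower under upper-quartile scaling, 1295 in limma voom on counts, 1876 in DESeq2 and 1793 with the block. Olfactory receptor sums and the markers of T cells (above) and erythroid cells (5 of 7 higher in TCF-1 cKO, sums of 1278 to 4829 against 813.3 to 1347) moved with the same contrast, and their part was not tested.

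The next comparisons ask what changed from before transplant to day 7 within each genotype. In WT 23 of the 50 genes were higher Post-Tx and 2 lower, beside 11.6% higher and 10.4% lower of 21434 genes tested, with a median log2 fold change of 0.79 beside -0.41 over all genes. In TCF-1 cKO 10 were higher and 12 lower, beside 14.2% and 12.5%, with a median of -0.19 beside 0.36. Under upper-quartile scaling the TCF-1 cKO split became 17 higher and 9 lower and its median 0.19, so the balance within TCF-1 cKO depended on the scaling, while WT kept 22 and 2. Of all 21434 genes, that scaling gave 4482 higher and 1644 lower in TCF-1 cKO and 1853 higher and 3218 lower in WT. B cell markers fell in both genotypes (10 of 10 lower, median log2 fold changes of -7.16 and -7.45) and 10 of 12 T cell markers rose, and the part of this change in cell makeup was not tested.

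Ifitm1 had the largest rise of the 50 genes in each genotype. It went from 29.3, 33.4 and 35.2 to 778, 526 and 701 normalized CPM in WT, a log2 fold change of 4.36 (SE 0.34, adjusted p = 9.39e-08). In TCF-1 cKO it went from 56.6, 23.1 and 23.8 to 258, 221 and 278 (log2 fold change 2.87, SE 0.31, adjusted p = 5.6e-06). Ifitm2 rose from 92.4, 104 and 170.2 to 726, 510 and 738 in WT and from 112, 72.4 and 93.7 to 341, 371 and 362 in TCF-1 cKO, with log2 fold changes of 2.43 (SE 0.26) and 1.95 (SE 0.26). No Pre-Tx library reached a Post-Tx one in either gene. Ifitm3 passed in TCF-1 cKO (0.86, SE 0.26, adjusted p = 0.023) and had a fold change of 0.65 (SE 0.26) in WT.

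Among the guanylate-binding proteins 6 of 8 rose in WT and 4 of 8 in TCF-1 cKO, where Gbp9 fell. Gbp7 went from 22.8, 26.6 and 16.2 to 235, 219 and 236 normalized CPM in WT, the smallest adjusted p of the 50 genes there (log2 fold change 3.40, SE 0.25, adjusted p = 6.23e-08). In TCF-1 cKO it went from 71.7, 56.6 and 68.6 to 248, 188 and 186 (log2 fold change 1.66, SE 0.24, adjusted p = 8.63e-05). The Post-Tx levels of the genotypes overlapped, while the Pre-Tx levels did not overlap. Gbp4 went from 27.4, 42.6 and 28.0 to 193, 219 and 281 in WT and from 118, 60.9 and 101 to 241, 193 and 301 in TCF-1 cKO, with log2 fold changes of 2.82 (SE 0.30) and 1.39 (SE 0.28). Gbp2, the most abundant of the family, went from 39.7, 59.7 and 43.7 to 170.2, 167 and 247 in WT and from 86.3, 102 and 76.0 to 261, 149 and 185 in TCF-1 cKO, with log2 fold changes of 2.03 (SE 0.27) and 1.16 (SE 0.26).

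All 4 immunity-related GTPases rose in WT and 2 of 4, Igtp and Iigp1, in TCF-1 cKO. Iigp1 went from 15.5, 13.6 and 10.2 to 89.9, 61.6 and 72.5 normalized CPM in TCF-1 cKO and from 16.8, 6.33 and 11.3 to 27.4, 48.3 and 70.4 in WT, with log2 fold changes of 2.51 (SE 0.40) and 2.09 (SE 0.40). Igtp went from 117, 137 and 98.2 to 345, 341 and 444 in WT (log2 fold change 1.68, SE 0.23, adjusted p = 4.96e-05). In TCF-1 cKO it started from 189, 163 and 226 and reached 354, 240.4 and 319.8 (0.66, SE 0.22, adjusted p = 0.0395). Both are known in mice to be strongly raised by interferon-gamma.

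In the type I genes the genotypes gave different counts. In WT 11 of 35 rose and 2 fell, and in TCF-1 cKO 1 rose (Ifi44) and 11 fell. Upper-quartile scaling and a minimum mean CPM of 10 each gave 6 that rose and 9 that fell in TCF-1 cKO. Of all genes tested there, 4482 rose and 1644 fell of 21434 under upper-quartile scaling, and 1638 and 1525 of 9522 under the CPM minimum. Ifit3 went from 123, 73.6 and 178 to 16.0, 21.6 and 22.8 normalized CPM in TCF-1 cKO (log2 fold change -2.63, SE 0.33, adjusted p = 2.12e-05). In WT its Pre-Tx values were those given above, 38.4, 32.4 and 33.0 were reached Post-Tx, and the change did not pass (-0.37, SE 0.31). Oasl2 went from 106, 77.9 and 80.4 to 13.8, 20.0 and 28.5 in TCF-1 cKO (log2 fold change -2.08, SE 0.40) and stood at 24.9, 26.4 and 7.90 in WT Post-Tx. Irf9, the DNA-binding partner of STAT2, fell in TCF-1 cKO from 177, 240.1 and 193 to 83.4, 80.7 and 85.1 (log2 fold change -1.29, SE 0.21) and stood at 128, 165 and 142 and then 136, 133 and 133 in WT. Adar fell from 251, 234 and 263 to 127, 67.9 and 89.9 in TCF-1 cKO (log2 fold change -1.39, SE 0.27), and Sp100 from 611, 544 and 602 to 271, 216 and 281 (log2 fold change -1.19, SE 0.22). In each of these falls no library of one stage overlapped the other.

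Oasl1, known in mice as a brake on translation of Irf7, and Ifi208 fell in both genotypes. Oasl1 went from 27.4, 49.8 and 41.7 to 6.96, 8.78 and 4.18 normalized CPM in WT and from 82.7, 42.4 and 68.4 to 6.68, 11.6 and 11.9 in TCF-1 cKO, with log2 fold changes of -2.58 (SE 0.40) and -2.68 (SE 0.40). Ifi208 had log2 fold changes of -1.59 (SE 0.30) and -1.32 (SE 0.29). The other falls in TCF-1 cKO were those of Gbp9, Ifit1, Rsad2, Trim30a and Usp18. In WT the type I genes that rose were Ifih1 (MDA5, the sensor of long double-stranded RNA), Zbp1, Oas3, Ifit2, Ifi44, Rtp4, Samhd1, Trim30a and the 3 genes of the PARP group. Ifih1 was 7.66-fold higher, and the others were 2.04-fold to 3.82-fold higher.

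**Figure D4:**
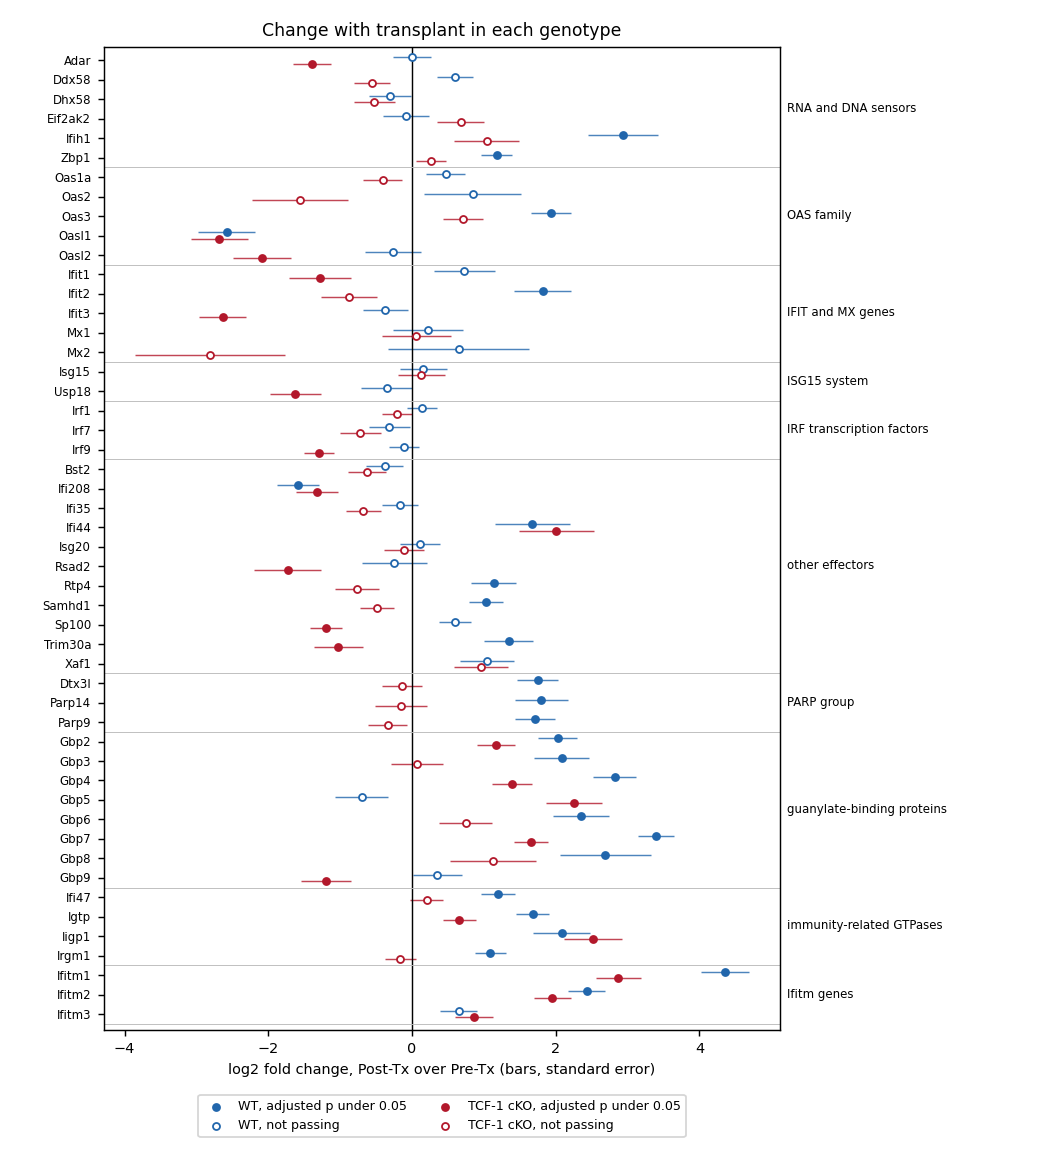
Log2 fold change of Post-Tx over Pre-Tx for each of the 50 genes in WT and in TCF-1 cKO, with bars for the standard error and filled points for an adjusted p under 0.05. In the IFIT and MX, OAS and PARP classes most TCF-1 cKO points lie left of the WT points, while both genotypes lie far to the right for Ifitm1 and Ifitm2.

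Whether the genotype difference itself changed with transplant was tested as the interaction of genotype and transplant over the 12 libraries. The genotype difference was lower Post-Tx than Pre-Tx in 26 of the 50 genes and higher in 1 (Gbp5), beside 11.5% lower and 17.1% higher of all 21434 genes tested. The median interaction was -1.24 on the log2 scale, beside 0.37 over all genes. The 26 genes were 17 of the 35 type I genes, 5 of 8 guanylate-binding proteins, 3 of 4 immunity-related GTPases and Ifitm1. The smallest adjusted p among them belonged to Sp100, whose log2 fold change of TCF-1 cKO over WT was 1.07 Pre-Tx and -0.67 Post-Tx (interaction -1.79, SE 0.32, adjusted p = 0.00254). For Gbp7 the interaction was -1.74 (SE 0.33, adjusted p = 0.00324), for Parp9 -2.04 (SE 0.39, adjusted p = 0.00326) and for Ifit3 -2.26 (SE 0.44, adjusted p = 0.00354). For Trim30a it was -2.37 (SE 0.48, adjusted p = 0.00437), and Ifit2 had the largest of the 26, -2.70 (SE 0.56, adjusted p = 0.00459). For Ifitm1 it was -1.49 (SE 0.42, adjusted p = 0.0175), with no difference passing Pre-Tx and a lower level in TCF-1 cKO Post-Tx. This test shares its libraries with the comparisons above, so it is no separate evidence for them. Of the marker lists, 3 of 6 NK cell markers were lower in the same contrast (median -2.17) and 5 of 7 erythroid markers higher (median 2.22), and their part was not tested.

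The number of interactions depended on how the libraries were scaled and filtered. Upper-quartile scaling, under which the median of all genes moved to 1.05, gave 11 lower and 2 higher, and a minimum mean CPM of 10 gave 9 lower and 1 higher. Of all genes tested, 720 of 21434 were lower and 4864 higher under upper-quartile scaling. Under the CPM minimum 650 of 9522 were lower and 720 higher. Without TCF-1 cKO Post-Tx replicate 2 there were 16 lower and 1 higher, beside 1335 lower and 1678 higher of all 22058 genes tested. The 3 PARP genes passed as lower under TMM, DESeq2 size factors and upper-quartile scaling, but only 2 of 3 did under the CPM minimum and in limma voom on TPM, whereas 0 of the 6 sensors and 0 of the 4 immunity-related GTPases passed as lower under upper-quartile scaling.

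Gbp5 ran against its family, and nearly all of its count lay in transcripts that are not protein-coding. Of the 5 Gbp5 transcripts, Gbp5-203, of 3303 bases and annotated for nonsense-mediated decay, held 12.7% to 99.9% of the count in single libraries, and Gbp5-202, of the same type, 0% to 77.7%. The protein-coding Gbp5-201 (3055 bases) held at most 1.38 normalized CPM in any library. Over all libraries 98.5% of the Gbp5 count lay in transcripts that are not protein-coding. In the rest of the family this share was 83.3% for Gbp4, 27.0% for Gbp6, 23.2% for Gbp9 and 12.1% for Gbp8. It was 0.101% for Gbp3, 0.00945% for Gbp2 and 0% for Gbp7. Gbp5 was higher in WT than in Pre-Tx TCF-1 cKO and the reverse Post-Tx, and so were the summed olfactory receptor genes. TCF-1 cKO Post-Tx replicate 2 was the highest library for both, with 117 normalized CPM of Gbp5 and a sum of 9185. When only protein-coding transcripts were counted (chosen after seeing the data), Gbp5 passed in none of the 4 comparisons where the filter kept it and its interaction turned to -1.16. In that setting 16 of the 48 genes kept Pre-Tx were higher in Pre-Tx TCF-1 cKO and 0 lower (29 had an unadjusted p under 0.05). Of all 14440 genes tested there, 813 were higher and 518 lower. Whether the Gbp5 values and these sums share a source was not tested.

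**Figure D5:**
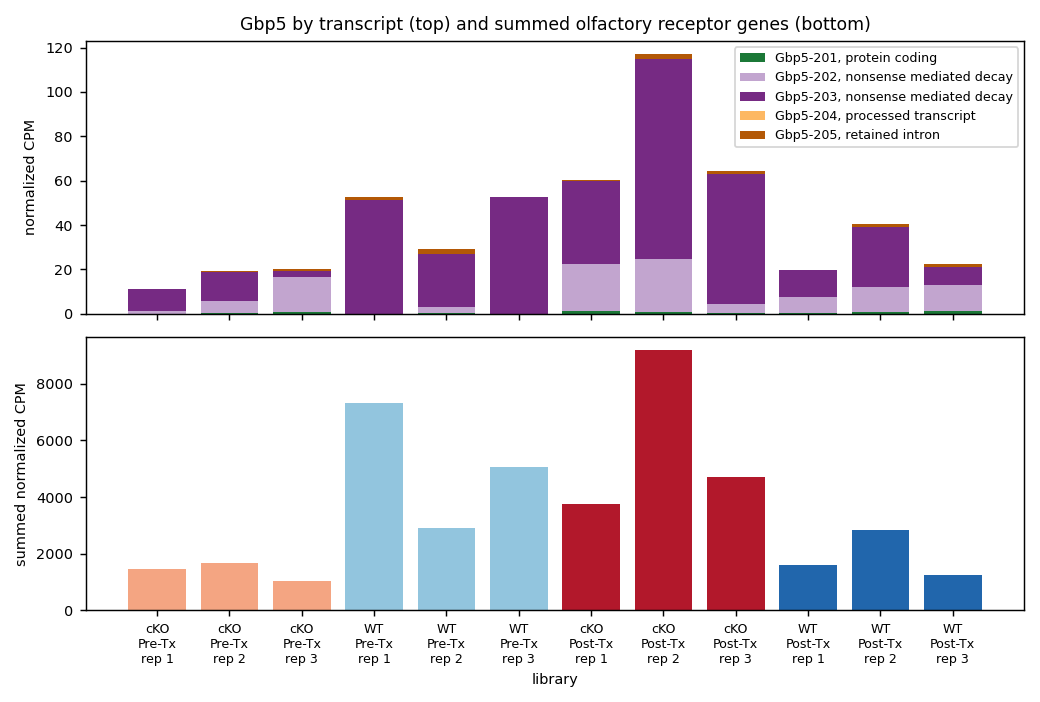
Top, normalized CPM of Gbp5 in each library, stacked by transcript. Bottom, summed normalized CPM of 1407 olfactory receptor genes in the same libraries, with TCF-1 cKO Post-Tx replicate 2 the highest in both panels.

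A related split occurred in Ddx58. The protein-coding Ddx58-201 stood at 127.6, 74.6 and 95.6 normalized CPM in Pre-Tx TCF-1 cKO, 46.2, 36.9 and 27.0 in Pre-Tx WT, 42.0, 27.3 and 46.2 in Post-Tx TCF-1 cKO and 59.8, 64.2 and 84.4 in WT Post-Tx. For this transcript the genotypes did not overlap at either stage, with TCF-1 cKO higher Pre-Tx and lower Post-Tx. Ddx58-208, a noncoding transcript of 435 bases, reached 45.7% of the Ddx58 count in TCF-1 cKO Post-Tx replicate 2 and 2.50% to 27.3% in the others. For Gbp4, 83.3% of the count lay in transcripts that are not protein-coding, for Mx1 83.4% and for Mx2 83.1%.

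The other genes of the pathway were read from a list of 60 in the same fits. Of 21 ligand genes, Ifng was the only one with more than a trace: it stood at 1.20, 0.127 and 1.48 and 0.307, 1.17 and 0.370 normalized CPM in TCF-1 cKO and WT Pre-Tx and at 159, 124 and 92.9 and 92.8, 68.2 and 91.7 Post-Tx. It rose in both genotypes, with log2 fold changes of 7.08 (SE 0.62) in TCF-1 cKO and 7.07 (SE 0.64) in WT, and the genotypes did not differ past the threshold at either stage. None of the 20 other ligand genes exceeded 1.91 normalized CPM in any library. Ifnz passed in TCF-1 cKO between the stages, from a count of 0 in all 3 Pre-Tx libraries to 0, 51 and 21 Post-Tx.

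Among the receptors, Ifngr1, the ligand-binding chain for interferon-gamma, stood at 268, 249 and 215 normalized CPM in Pre-Tx TCF-1 cKO and 118, 153 and 75.1 in WT Pre-Tx, and at 345, 253 and 359.9 and 385, 478 and 577 Post-Tx. It was higher in TCF-1 cKO Pre-Tx (log2 fold change 1.07, SE 0.26, adjusted p = 0.0236) and rose with transplant in WT (2.06, SE 0.26). Ifngr2, the second chain, went from 101, 135 and 70.1 to 7.36, 11.8 and 4.83 in WT and from 152, 112 and 130.3 to 8.22, 17.4 and 19.3 in TCF-1 cKO, with log2 fold changes of -3.68 (SE 0.40) and -3.13 (SE 0.39). The 2 chains thus moved in opposite directions in WT. Of the type I receptor, Ifnar1 stood at 138, 156 and 145 in Pre-Tx TCF-1 cKO, 96.7, 97.8 and 48.5 in Pre-Tx WT, 48.8, 63.0 and 62.8 in Post-Tx TCF-1 cKO and 121, 70.4 and 131 in WT Post-Tx, and it fell with transplant in TCF-1 cKO (-1.33, SE 0.29). Ifnar2 fell in both genotypes (-1.77, SE 0.27, in TCF-1 cKO and -0.82, SE 0.26, in WT). It stood at 177, 100.3 and 161 and 73.1, 97.3 and 97.2 in TCF-1 cKO and WT Pre-Tx and at 39.3, 48.2 and 41.2 and 39.7, 51.9 and 60.03 Post-Tx. Il10rb, a chain shared by the receptors of interferon-lambda and interleukin-10, went from 174, 152 and 182 to 53.6, 38.5 and 52.0 in TCF-1 cKO and from 136, 141 and 108 to 61.6, 49.2 and 51.7 in WT. It fell in both genotypes without overlap of the stages (-1.82, SE 0.23, and -1.25, SE 0.23). Ifnlr1, the other chain for interferon-lambda, was low, at 4.97, 4.71 and 3.12 and 1.60, 6.5 and 1.36 in TCF-1 cKO and WT Pre-Tx and at 0.608, 4.25 and 0.749 and 2.31, 0.101 and 0.199 Post-Tx, and passed in no comparison.

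Of the 5 kinase and STAT genes, 2 were higher in TCF-1 cKO Pre-Tx, Jak1 (1.23, SE 0.33) and Stat2. Stat2 stood at 100.3, 101 and 164 normalized CPM against 54.0, 76.3 and 27.8 (log2 fold change 1.17, SE 0.33, adjusted p = 0.0376) and at 72.2, 42.5 and 68.7 and 69.8, 53.1 and 53.8 in TCF-1 cKO and WT Post-Tx. Over the whole list, 6 of 40 tested genes were higher (15%) and 1 lower (2.5%) in TCF-1 cKO Pre-Tx, beside 8.52% and 5.65% of all genes tested. Post-Tx 1 of 41 was higher and 1 lower (2.44% each), beside 3.52% and 3.13%. With transplant 8 of 41 rose (19.5%) and 12 fell (29.3%) in WT, beside 11.6% and 10.4%, and 6 rose (14.6%) and 21 fell (51.2%) in TCF-1 cKO, beside 14.2% and 12.5%. In the interaction 0 of 41 were higher and 11 lower (26.8%), beside 17.1% and 11.5%. The Post-Tx shares and the share that rose in TCF-1 cKO were near the background. The Pre-Tx libraries held many transcripts of B cells, and B cell markers fell with transplant in both genotypes, as given above. The part of this change in cell makeup in the pathway counts was not tested.

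In 13 of the 50 genes no comparison passed, namely Bst2, Dhx58, Eif2ak2, Ifi35, Irf1, Irf7, Isg15, Isg20, Mx1, Mx2, Oas1a, Oas2 and Xaf1. The smallest adjusted p of any of them in any comparison was 0.0513 (Ifi35, TCF-1 cKO between the stages), so these are differences that did not pass rather than levels shown to be equal. Several members share sequence with other genes, and the split of their reads is uncertain. Of the distinct 31-base words of a gene, 74.2% in Gbp6 (closest gene Gm43302), 68.8% in Oas1a (Oas1g), 61.8% in Ifit3 (Ifit3b), 55.5% in Ifitm2 (Gm45717), 34.0% in Ifi208 (Ifi213) and 31.1% in Gbp8 (Gbp11) also occur in another gene. The loci of Gbp4, Gbp8 and Gbp9 overlap on chromosome 5 of GRCm38 and end at 105139586, 105139540 and 105139539.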

How the data were processed

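RNA from sorted mouse T cells was sequenced in 12 libraries, 3 in each of 4 groups taken from the labels. The authors aligned reads to transcripts with kallisto 0.46.2 and deposited, for each transcript and library, estimated counts that are not normalized and TPM values scaled by transcript length and library. The submitters' notes name mm9, and no source used here gives the transcript set. Transcript identifiers were matched to GENCODE M21 (GRCm38): 116428 of 117497 matched (99.1%), and 0.282% to 0.386% of the count of a library was left unmatched and out of the tests.

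Expected counts were summed per gene and rounded to whole numbers. Genes were tested with edgeR 4.0.16 in R 4.3.3 (TMM, filterByExpr, quasi-likelihood test), within the 6 libraries of a stage for genotype and in all 12 for transplant and interaction. P-values were adjusted by Benjamini-Hochberg over all genes tested, a call meant an adjusted p under 0.05 with no limit on fold change, and the SE was the fold change divided by the square root of F. A simulation with known changes and the same dispersion for every gene checked the code of the fits. It does not measure their error rates in these libraries. TPM served for levels between genes. Per-library values are given for up to 6 genes per direction and comparison with the smallest adjusted p, the most abundant gene of each class, Tcf7, Stat2, Ifng and the receptors, and 1 further pathway gene of this rule is not reported here. Other genes named were chosen after their values were seen. The genes and lists were chosen with earlier results of these data known.

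Alternatives were DESeq2 size factors, upper-quartile scaling, no filter, a mean CPM of at least 10, DESeq2 1.42.0, limma 3.58.1 voom on counts and on TPM, a replicate block, 1 fit of all 12 libraries, each library left out and, added after seeing the data, protein-coding transcripts only. Replicate libraries of a group correlated at 0.869 to 0.955.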

Additional observations from a re-analysis of the deposited data

Results flagged for a closer look

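The effect of genotype differed between Pre-Tx and Post-Tx in 27 of the 50 genes by the interaction test of edgeR. Of all 21434 genes tested, 28.6% passed in either direction. The count fell under upper-quartile scaling and the CPM minimum, as given above. Ifih1 and Zbp1 passed in 5 of the 12 fits without 1 library, and the others in 7 to 12. The values given here are the Post-Tx minus the Pre-Tx log2 fold change of TCF-1 cKO over WT. Among the Ifit genes the difference was -2.70 for Ifit2, -2.26 for Ifit3 and -2.01 for Ifit1. In the PARP group it was -2.04 for Parp9, -1.95 for Parp14 and -1.89 for Dtx3l. Among the sensors it was -1.90 for Ifih1, -1.39 for Adar, -1.15 for Ddx58 (0.89, not passing, in limma voom on TPM) and -0.91 for Zbp1. In the OAS family it was -1.82 for Oasl2 and -1.22 for Oas3, and for the transcription factor Irf9 it was -1.18. Of the other effectors, Trim30a had -2.37, Rtp4 -1.90, Sp100 -1.79 and Samhd1 -1.51. Of the guanylate-binding proteins, Gbp3 had -2.02, Gbp7 -1.74, Gbp6 -1.60, Gbp9 -1.55 and Gbp4 -1.43, while Gbp5 had 2.96 (-1.16, not passing, with protein-coding transcripts only). Of the immunity-related GTPases, Irgm1 had -1.25, Igtp -1.02 and Ifi47 -0.99. The difference for Ifitm1 was -1.49.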

How the results depend on the processing

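The count of genes higher in TCF-1 cKO Pre-Tx was 15 to 27 under the 10 alternatives that kept all libraries, and the single lower gene was lost (0) in limma voom on TPM and with protein-coding transcripts only. Leaving out 1 library gave 0 to 19 higher and 0 to 1 lower, beside 10 to 1294 higher and 4 to 1300 lower over all genes. Post-Tx, the 3 lower genes became 1 under upper-quartile scaling, a mean CPM of at least 10, 1 fit of all 12 libraries and protein-coding transcripts, 6 in limma voom on counts and 8 in DESeq2, and the 3 higher genes became 1 in the fit of all 12 libraries. Leaving out 1 library gave 0 to 3 higher and 0 to 3 lower, beside 3 to 1905 higher and 3 to 1268 lower over all genes. Within WT the transplant counts were 22 to 26 higher and 2 to 3 lower with all libraries. Within TCF-1 cKO upper-quartile scaling and the CPM minimum each gave 17 higher, and DESeq2 gave 20 lower. The interaction gave 11 lower and 2 higher under upper-quartile scaling, 9 lower under the CPM minimum and 0 higher with protein-coding transcripts, and 16 to 30 lower without 1 library. Of single genes, the interaction of Ddx58 became 0.89 in limma voom on TPM and that of Gbp5 -1.16 with protein-coding transcripts, neither passing. The causes were not tested.

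Over all genes, the counts moved by more than 1.5 times in several of these settings: Pre-Tx from 1450 higher and 962 lower to 636 and 2068 under upper-quartile scaling and 2357 and 1704 in DESeq2. Post-Tx they moved from 679 and 604 to 687 and 111 under upper-quartile scaling, 1905 and 1876 in DESeq2 and 1553 and 1295 in limma voom on counts. They were 1464 and 1793 with the replicate block and 40 and 97 in the fit of all 12 libraries. Without WT Pre-Tx replicate 1 the Pre-Tx counts were 10 and 4, and without TCF-1 cKO Post-Tx replicate 2 the Post-Tx counts were 3 and 3. The interaction moved from 3663 and 2468 to 4864 and 720 under upper-quartile scaling and 720 and 650 under the CPM minimum.

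The libraries share replicate numbers between groups, and the residual correlations of same-numbered libraries ran from -0.272 to 0.248. Between the Post-Tx genotypes they were -0.000179, 0.248 and 0.108 for replicates 1, 2 and 3, so a shared deviation there is not excluded. The labels do not say what the numbers mark, and they were not read as pairs. With the replicate block the counts of the 50 genes were 21 higher and 1 lower Pre-Tx, 3 and 9 Post-Tx, 23 and 2 with transplant in WT, 9 and 10 in TCF-1 cKO, and 1 and 24 for the interaction. Genes under about 1 normalized CPM, such as most ligands other than Ifng, rest on few or no counts, and the part of depth in this was not tested.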
